A study of Mus musculus with 9 samples.

Results

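The PDGF and VEGF ligands and receptors of mouse XEN cells are described here as a set of 10 genes among the 55401 genes counted. XEN cells are stem cell lines of the extra-embryonic endoderm, the lineage that lines the yolk sac. The set holds the PDGF receptors Pdgfra and Pdgfrb, the PDGF ligands Pdgfa, Pdgfb and Pdgfc, the VEGF receptors Flt1 and Kdr, and the VEGF ligands Vegfa, Vegfb and Vegfc. The members were taken by gene symbol from a list that was drawn up with earlier results of these libraries known, among them the counts of Vegfc in WT_EV and in the deletion libraries. The differences among WT_EV and the deletion groups are therefore a description for the members: calls are counted beside the share of all genes called, and no p-value of a member is read as evidence. Of the 10 members, 9 passed the filter on low counts and were fitted, and Pdgfb had no count in any library.

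The female XEN line came from a cross of Mus musculus molossinus with Mus musculus, and all groups share it. The homozygous deletion, named DXp_DXm, had 2 libraries, the paternal deletion, named DXp, had 2, wild-type clones, named WT_clone, had 2, and wild type named WT_EV had 3. The study's design places the deletion upstream of Xist, the noncoding RNA gene of X inactivation, whereas the genotype labels call it a deletion of Xist. The titles name both DXp_DXm libraries D3 and both DXp libraries D1, so genotype and line cannot be told apart if each is 1 line. The meaning of EV and of these line names is not stated in the sources used here. No label says whether each WT_EV library is a culture of its own, and the spread behind every p-value may therefore be technical.

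PDGF ligands are secreted dimers that bind receptor tyrosine kinases: PDGFRA binds PDGF-A, PDGF-B and PDGF-C chains, and PDGFRB binds PDGF-B and PDGF-D best. Pdgfra is a marker of the primitive endoderm and of XEN cells, which are known to depend on its signal for growth. VEGF ligands act mainly on endothelium: VEGF-A binds KDR, the main signalling receptor of blood vessels, and FLT1, which binds VEGF-A tightly, signals weakly and, in a secreted form, sequesters it. VEGF-B binds FLT1, and VEGF-C binds FLT4 and, once cleaved, KDR. Vegfa is a target of the hypoxia-inducible factors, and the visceral endoderm of the yolk sac is known as a source of it.

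The promoters of 4 members are shown because their transcripts behaved differently. Vegfc and Flt1 had higher values in both deletion groups than in WT_EV, and Vegfb had lower values. Pdgfra had the highest mean TPM of the members in all 3 groups, TPM being counts per exon length. Each sequence runs 5′ to 3′ on the gene's strand over 300 bases around the start of transcription given by RefSeq, with each CG dinucleotide in capitals. Coordinates are GRCm38.p6, with Vegfc at chr8:54077282-54077581 on the plus strand, Flt1 at chr5:147725962-147726261 on the minus strand, Vegfb at chr19:6987602-6987901 on the minus strand and Pdgfra at chr5:75152001-75152300 on the plus strand.
Vegfc: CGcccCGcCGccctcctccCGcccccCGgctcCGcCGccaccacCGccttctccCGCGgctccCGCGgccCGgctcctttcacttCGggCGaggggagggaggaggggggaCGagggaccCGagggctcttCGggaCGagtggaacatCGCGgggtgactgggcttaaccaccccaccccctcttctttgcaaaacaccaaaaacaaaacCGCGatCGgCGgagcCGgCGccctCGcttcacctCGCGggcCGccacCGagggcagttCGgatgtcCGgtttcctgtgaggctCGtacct
Flt1: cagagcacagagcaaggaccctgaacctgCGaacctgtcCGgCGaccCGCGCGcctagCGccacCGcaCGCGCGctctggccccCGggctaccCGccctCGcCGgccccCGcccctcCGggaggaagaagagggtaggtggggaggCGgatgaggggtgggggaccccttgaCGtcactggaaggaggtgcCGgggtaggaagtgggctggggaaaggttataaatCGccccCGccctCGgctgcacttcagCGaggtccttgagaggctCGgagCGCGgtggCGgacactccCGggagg
Vegfb: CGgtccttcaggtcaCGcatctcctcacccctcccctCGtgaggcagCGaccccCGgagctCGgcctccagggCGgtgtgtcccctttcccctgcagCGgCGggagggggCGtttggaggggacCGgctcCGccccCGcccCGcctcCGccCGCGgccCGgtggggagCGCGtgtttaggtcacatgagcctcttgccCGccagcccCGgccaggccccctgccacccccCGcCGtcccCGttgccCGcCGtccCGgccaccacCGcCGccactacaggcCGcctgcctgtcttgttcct
Pdgfra: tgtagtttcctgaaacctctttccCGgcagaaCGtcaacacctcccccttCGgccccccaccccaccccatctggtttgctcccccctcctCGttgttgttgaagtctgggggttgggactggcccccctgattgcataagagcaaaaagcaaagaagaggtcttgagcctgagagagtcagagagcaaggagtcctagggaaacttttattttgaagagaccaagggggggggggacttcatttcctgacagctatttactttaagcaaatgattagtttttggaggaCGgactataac

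The Vegfc window held 35 CG dinucleotides, the Vegfb window 31, the Flt1 window 29 and the Pdgfra window 5. The median over the 32851 RefSeq promoter windows of mouse genes was 7. The GC content was 70.3% for Vegfc, 70.7% for Flt1, 75.3% for Vegfb and 51.0% for Pdgfra. A CG-dense start is thus shared by members whose counts differ in opposite directions, before any account is taken of GC content. Pdgfra, the member of highest mean TPM, lacks one. Windows were found for 8 members, by symbol, and the set has 10 windows since Pdgfa and Vegfa have 2 each. Among these, the letters TATAAA were found in the Flt1 window alone, against 13.6% of all windows. The core of the hypoxia response element, ACGTG on either strand, was found in the downstream Vegfa window alone, against 19.6% of all windows. The letters GATA, on either strand, were found in the Kdr window and in the upstream Vegfa window, against 57.9% of all windows. A match describes the letters only.

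The libraries held 25589912 and 27334893 counts in DXp_DXm, 24586135 and 29335803 in DXp, and 15282608, 19833044 and 14352719 in WT_EV. Levels are CPM, the share of a library's counts scaled by TMM, and levels of different genes are compared as TPM, which divides by exon length. The deletion and WT_EV libraries differed in the RNA they captured: the 7SK gene Rn7sk had 2 to 7 counts in the deletion libraries and 157188 to 255029 in WT_EV. Across all genes tested, the change in DXp against WT_EV followed GC content, with a median log2 change of 2.06 below 42% GC and of -3.42 above 54% GC. A second fit with offsets for GC content and exon length is therefore given beside each member fitted except Vegfc, as the value with offsets. What part the RNA capture has in a difference from WT_EV was not tested, and in bulk RNA fewer cells that express a gene and less RNA per cell cannot be told apart. Xist had 5460 and 8951 CPM in DXp_DXm, 17314 and 15447 CPM in DXp, and 689, 953 and 1562 CPM in WT_EV. All 4 deletion libraries lie above WT_EV in Xist, although the genotype labels call it a deletion of Xist. The extent of the deletion was not tested, and the counts were not used to check the labels. The first DXp library stood apart in the genes of basement membrane collagen IV, with 0 counts of Col4a1 and 4 of Col4a2, whereas the second had 51355 and 8241. WT_EV had 92225, 284971 and 103597 counts of Col4a1 and 41913, 120330 and 47680 of Col4a2. Without that library, the log2 change in DXp against WT_EV was 2.56 for Flt1, 1.46 for Kdr, 0.77 for Vegfa and -2.74 for Vegfb, with the second library assumed to vary like the other groups. It was 1.30 for Pdgfra and 3.74 for Pdgfc. With 1 DXp library left, no count of members called is given for that fit.

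**Figure D1:**
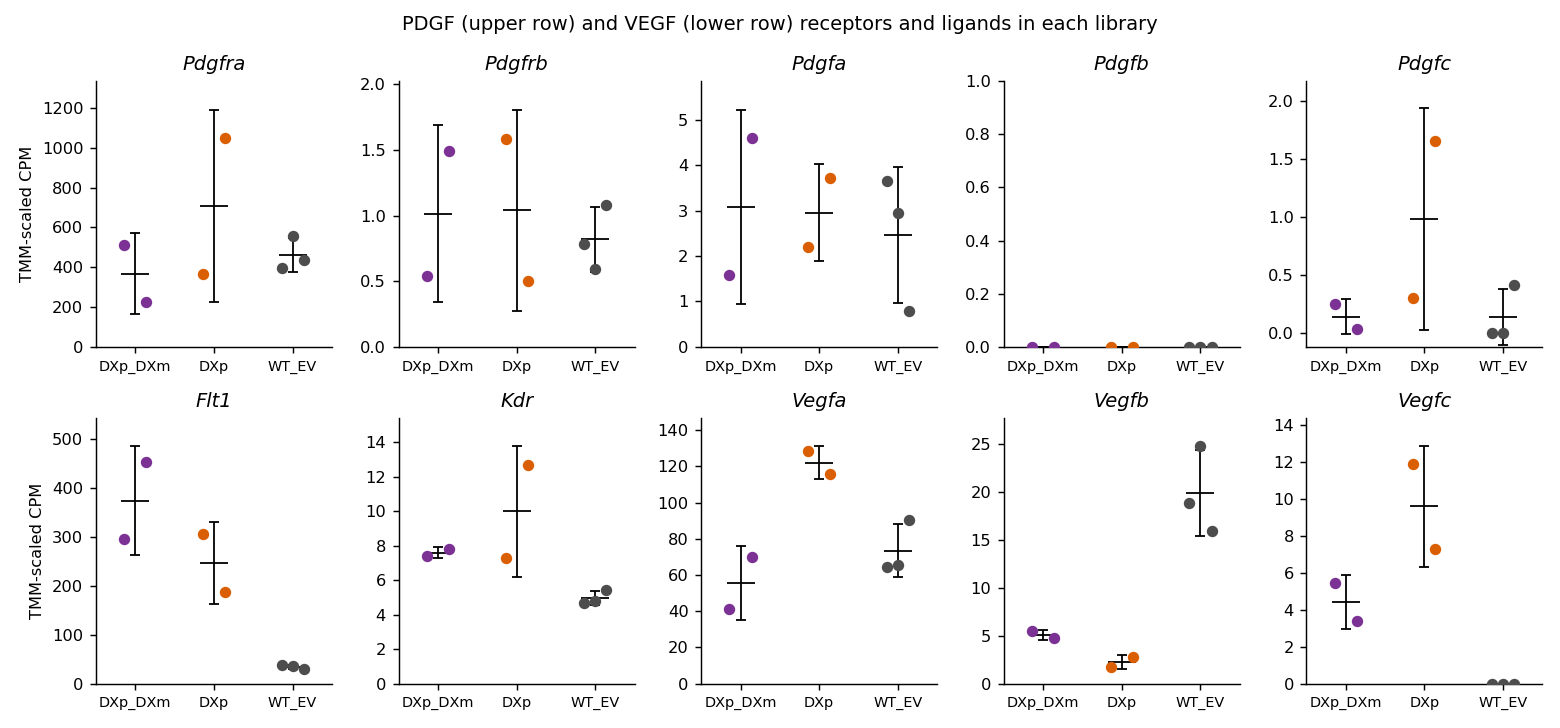
TMM-scaled CPM (vertical axis, linear, a scale for each gene) of the 10 members in each library (points), with the mean and SD of each group (horizontal and vertical bars), for DXp_DXm, DXp and WT_EV. Flt1, Vegfc and, by a small margin, Kdr lie above WT_EV in every deletion library and Vegfb below it, whereas the points of Pdgfra, Pdgfrb and Pdgfa overlap between groups.

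The VEGF receptor Flt1 (ENSMUSG00000029648, chr5:147561604-147726011 in mm10) showed the clearest separation of the receptors. It had 7105 and 11505 counts in DXp_DXm, 5968 and 4857 in DXp, and 678, 832 and 499 in WT_EV. These are 295 and 452 CPM in DXp_DXm, 305 and 188 CPM in DXp, and 38.2, 35.1 and 29.9 CPM in WT_EV. All 4 deletion libraries lay above all 3 WT_EV libraries, and the deletion groups overlapped each other. The share of all genes separated from WT_EV in this way was not counted, so nothing is read from a separation, here or for the members below. The mean was 373 ± 111 CPM in DXp_DXm and 34.4 ± 4.16 CPM in WT_EV (SD, n = 2 and 3), 10.9-fold higher, with a fitted log2 change of 3.44 (SE 0.29). DXp averaged 246 ± 83.2 CPM (SD, n = 2), 7.16-fold the mean of WT_EV, with a fitted log2 change of 2.84 (SE 0.29). With offsets the log2 changes were 3.03 in DXp_DXm and 2.45 in DXp against WT_EV. Flt1 has 49.0% GC, and genes tested of 48 to 54% GC had a median log2 change of -0.46 in DXp_DXm and -0.82 in DXp against WT_EV.

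Kdr (ENSMUSG00000062960, chr5:75932827-75978458), the other VEGF receptor of the set, was scarce. It had 178 and 199 counts in DXp_DXm, 143 and 328 in DXp, and 83, 114 and 91 in WT_EV. The groups did not overlap with WT_EV in CPM, with 7.38 and 7.82 in DXp_DXm, 7.31 and 12.7 in DXp, and 4.67, 4.81 and 5.46 in WT_EV. The margin was small: the lowest deletion library exceeded the highest WT_EV library by less than 2 CPM. The log2 change was 0.61 (SE 0.37) in DXp_DXm and 1.01 (SE 0.36) in DXp against WT_EV. With offsets the values were 0.06 and 0.46, with 95% intervals that include 0 in both groups (-0.67 to 0.80 in DXp_DXm, -0.27 to 1.19 in DXp).

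Per length, Flt1 exceeded Kdr in every library, and by more in the deletion libraries. The ratio of their TPM was 26.7 and 38.7 in DXp_DXm, 27.9 and 9.90 in DXp, and 5.46, 4.88 and 3.67 in WT_EV. The ratio of every deletion library lay above that of every WT_EV library, and the second DXp library came nearest to WT_EV. The GC content is 49.0% for Flt1 and 48.6% for Kdr.

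Vegfc (ENSMUSG00000031520, chr8:54077606-54187096), the growth factor of lymphatic vessels, had 132 and 86 counts in DXp_DXm, 233 and 189 in DXp, and 0 in each of the 3 WT_EV libraries. This is 5.47 and 3.38 CPM in DXp_DXm and 11.9 and 7.30 CPM in DXp. The count of 0 over the WT_EV group allows up to 0.0516 CPM, taking 3 counts as the limit over the group, and covers counting error only. The mean of DXp_DXm, 4.43 ± 1.48 CPM (SD, n = 2), was thus at least 85.8-fold higher than WT_EV, and that of DXp, 9.60 ± 3.26 CPM (SD, n = 2), at least 186-fold higher. The lowest library alone was at least 65.5-fold higher in DXp_DXm and at least 141-fold higher in DXp. Vegfc has 48.8% GC. These are the values that brought Vegfc into the list. A fitted change with an SE is not given against a group at 0.

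Vegfb (ENSMUSG00000024962, chr19:6982473-6987651) went the other way. It had 132 and 121 counts in DXp_DXm, 34 and 71 in DXp, and 336, 588 and 266 in WT_EV. In CPM these were 5.47 and 4.75 in DXp_DXm, 1.74 and 2.74 in DXp, and 18.9, 24.8 and 15.96 in WT_EV, with no overlap among the 3 groups. The log2 change was -1.96 (SE 0.35) in DXp_DXm and -3.14 (SE 0.36) in DXp against WT_EV. Vegfb has the highest GC content of the set, 61.1%, and genes tested above 54% GC had a median log2 change of -3.00 in DXp_DXm and -3.42 in DXp. With offsets the sign turned, to 1.75 (SE 0.32) in DXp_DXm and 0.62 (SE 0.33) in DXp against WT_EV. The direction of Vegfb against WT_EV therefore depends on whether GC content is taken into account.

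Vegfa (ENSMUSG00000023951, chr17:46016993-46032369), the main ligand of KDR, had 991 and 1785 counts in DXp_DXm, 2513 and 2998 in DXp, and 1140, 1557 and 1505 in WT_EV. The levels were 41.1 and 70.1 CPM in DXp_DXm, 128 and 116 CPM in DXp, and 64.2, 65.7 and 90.3 CPM in WT_EV. Both DXp libraries lay above all WT_EV libraries, whereas DXp_DXm overlapped WT_EV. The log2 change was -0.40 (SE 0.29) in DXp_DXm and 0.74 (SE 0.29) in DXp against WT_EV. With offsets it was 1.54 (SE 0.33) in DXp_DXm and 2.95 (SE 0.33) in DXp, so the value of DXp_DXm changed sign. Vegfa has 54.7% GC.

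As a share of VEGF ligand transcripts per length, the mix of ligands differed between groups. Vegfa made up 62.7 and 78.6% of VEGF ligand TPM in DXp_DXm, 83.3 and 84.9% in DXp, and 55.9, 49.8 and 67.9% in WT_EV. Vegfb made up 22.3 and 14.2% in DXp_DXm, 3.01 and 5.37% in DXp, and 44.0, 50.2 and 32.0% in WT_EV. Vegfc made up 14.6 and 6.63% in DXp_DXm, 13.5 and 9.36% in DXp, and 0% in WT_EV. Vegfd and Pgf, the other genes of the family, made up at most 0.338% and 0.260% in any library. In WT_EV nearly all VEGF ligand TPM came from Vegfa and Vegfb. These shares are not corrected for GC content, and the direction of Vegfb against WT_EV turns with that correction.

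**Figure D2:**
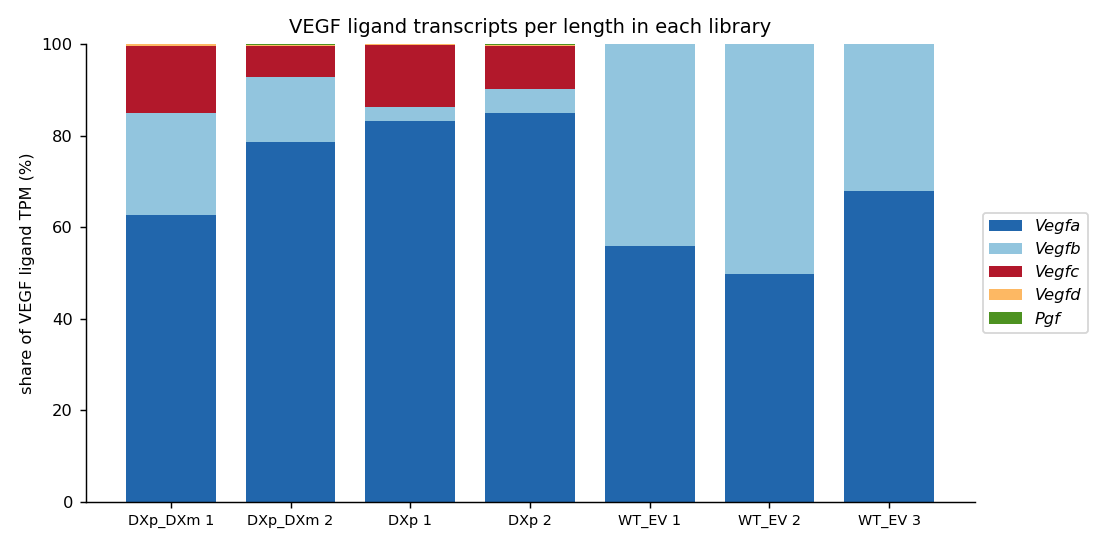
Share of VEGF ligand TPM (percent, vertical axis) held by Vegfa, Vegfb, Vegfc, Vegfd and Pgf in each of the 7 libraries (stacked bars). Vegfb holds 32.0 to 50.2% in WT_EV, and Vegfc, listed at 0% there, holds 6.63 to 14.6% in the deletion libraries.

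Pdgfra (ENSMUSG00000029231, chr5:75152292-75198215), the receptor that marks the lineage, had 12321 and 5716 counts in DXp_DXm, 7184 and 27211 in DXp, and 7012, 13215 and 7268 in WT_EV. Its level was 511 and 225 CPM in DXp_DXm, 367 and 1051 CPM in DXp, and 395, 558 and 436 CPM in WT_EV. The libraries of each deletion group lay more than 2-fold apart, and both groups overlapped WT_EV. The log2 change against WT_EV was -0.33 (SE 0.46) in DXp_DXm and 0.62 (SE 0.46) in DXp, and with offsets -0.73 and 0.22. Without the second DXp library the DXp value was -0.32, and without the first it was 1.30, so a direction for DXp rests on which library is kept.

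Kit, the stem cell factor receptor gene that lies between Pdgfra and Kdr in the mouse genome, was singled out after its values were seen. It had 461 and 180 CPM in DXp_DXm, 238 and 868 CPM in DXp, and 210, 247 and 245 CPM in WT_EV. Among the 4 deletion libraries the order was the same for Kit and Pdgfra, with the second DXp library highest and the second DXp_DXm library lowest. Over all 7 libraries the order differed: the second WT_EV library lay above the first DXp_DXm library in Pdgfra and below it in Kit. Kdr had another order, with the first DXp library lowest of the deletion libraries. By the measure of likeness used here, Pearson's r of log2 CPM over the 7 libraries among 10084 genes, Pdgfra was most like Baz1a (0.96), Pcdhgb6 (0.96), Cdyl (0.94) and Ripor2 (0.91). These genes had means in the 3 groups that lay close together, such as 123 ± 16.5 CPM in DXp_DXm, 140 ± 18.2 CPM in DXp and 133 ± 0.916 CPM in WT_EV for Baz1a (SD, n = 2, 2 and 3). For Vegfc the most similar genes were Wee1, Tmem33, Yipf6 and Lman1, with r of 0.998 to 0.999. Wee1 had 134 ± 8.44 CPM in DXp_DXm, 162 ± 11.7 CPM in DXp and 50.1 ± 1.49 CPM in WT_EV (SD, n = 2, 2 and 3), the same order of groups as Vegfc with a far smaller range. The likeness is a description over 7 libraries that share the split in RNA capture.

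Pdgfrb (ENSMUSG00000024620, chr18:61045150-61085061), a receptor of pericytes and smooth muscle, was near the limit of detection. It had 13 and 38 counts in DXp_DXm, 31 and 13 in DXp, and 14, 14 and 18 in WT_EV. The groups overlapped, at means of 1.02 ± 0.674 CPM in DXp_DXm, 1.04 ± 0.766 CPM in DXp and 0.819 ± 0.246 CPM in WT_EV (SD, n = 2, 2 and 3). Per length Pdgfra exceeded Pdgfrb 82.2-fold or more in every library. The log2 change against WT_EV was 0.32 (SE 0.69) in DXp_DXm and 0.34 (SE 0.69) in DXp, and 2.24 (SE 0.73) and 2.51 (SE 0.74) with offsets at 55.0% GC.

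The PDGF ligands of the set were scarce in every group. Pdgfa (ENSMUSG00000025856, chr5:138976014-138997370), the main ligand of PDGFRA, had 38 and 117 counts in DXp_DXm, 43 and 96 in DXp, and 65, 70 and 13 in WT_EV. The groups overlapped, at 3.09 ± 2.14 CPM in DXp_DXm, 2.95 ± 1.07 CPM in DXp and 2.46 ± 1.5 CPM in WT_EV (SD, n = 2, 2 and 3). The log2 change against WT_EV was 0.32 (SE 0.69) in DXp_DXm and 0.26 (SE 0.69) in DXp, and with offsets 3.32 (SE 0.64) and 3.49 (SE 0.65), at 57.1% GC.

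Pdgfc (ENSMUSG00000028019, chr3:81036416-81214040), a ligand that needs cleavage before it binds PDGFRA, had 6 and 1 counts in DXp_DXm, 6 and 43 in DXp, and 0, 0 and 7 in WT_EV. The second DXp library alone holds most of its counts. The log2 change was 0.15 (SE 1.57) in DXp_DXm and 2.91 (SE 1.36) in DXp against WT_EV, with a 95% interval of -0.14 to 5.96 in DXp. With offsets it was -0.79 (SE 1.58) in DXp_DXm, where the sign turned, and 1.92 (SE 1.36) in DXp. Pdgfb (ENSMUSG00000000489, chr15:79995874-80014977), the ligand of both receptors, had 0 counts in all 7 libraries, which allows a level of up to 0.0196 CPM over the 7 libraries together.

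Genes that overlap the members had few counts of their own, which does not give the number of reads shared with the members or left uncounted. Pdgfra overlaps the antisense genes Gm42802 and Gm42803 and the microRNA gene Mir7025, Pdgfa overlaps the antisense gene 6330403L08Rik over 813 exon bases, and Pdgfc overlaps Gm16000. The strand setting of the counting is not given, so reads of a member and its antisense gene cannot be told apart with certainty. The highest count of any of these 5 genes was 19, for Mir7025 in a WT_EV library.

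In order of TPM, Pdgfra stood first in every group, with a mean of 141 in DXp_DXm, 283 in DXp and 142 in WT_EV. In DXp_DXm it was followed by Flt1 (108), Vegfa (50.9), Vegfb (12.4), Vegfc (7.0), Pdgfa (3.90), Kdr (3.28), Pdgfrb (0.731) and Pdgfc (0.108). There the library ranges of Pdgfra and Flt1 overlapped, as did those of Vegfc with Pdgfa and of Pdgfa with Kdr. In DXp the order after Pdgfra was Vegfa (108), Flt1 (67.7), Vegfc (14.6), Vegfb (5.45), Kdr (4.34), Pdgfa (3.71), Pdgfc (0.791) and Pdgfrb (0.686). Vegfb overlapped with Kdr, Kdr with Pdgfa and Pdgfc with Pdgfrb. In WT_EV the order was Vegfa (51.8), Vegfb (38.2), Flt1 (7.75), Pdgfa (2.43), Kdr (1.67), Pdgfrb (0.448) and Pdgfc (0.0794), with Vegfc and Pdgfb listed at 0. There Vegfa overlapped with Vegfb and Pdgfa with Kdr. These levels are not corrected for GC content.

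By edgeR's quasi-likelihood test adjusted over the 15331 genes tested, at an adjusted p under 0.05, the members Flt1 and Vegfc were called higher and Vegfb lower in DXp_DXm against WT_EV, 3 of 9. The background was 30.9% of all genes tested called higher and 36% called lower. With offsets 6 members were called higher (Flt1, Pdgfa, Pdgfrb, Vegfa, Vegfb and Vegfc) and 0 lower, where 19.7% of all genes were called higher and 21.4% lower. In DXp against WT_EV, Flt1, Kdr, Vegfa and Vegfc were called higher and Vegfb lower, 5 of 9, beside 32.2% of all genes called higher and 40.1% lower. With offsets Flt1, Pdgfa, Pdgfrb, Vegfa and Vegfc were called higher and 0 lower, beside 23.5% and 26.6% of all genes. Without the first or second WT_EV library, 3 members were called in DXp against WT_EV, and Kdr and Vegfa were not. These fits called 66.6% and 66.9% of all genes tested. The list was chosen on these contrasts, so nothing is read from these counts. The median log2 change of the 9 members was 0.32 in DXp_DXm and 0.74 in DXp, beside -0.15 and -0.35 over all genes tested. Scaling by the size factors of DESeq2 moved the all-gene median of DXp to -0.20.

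**Figure D3:**
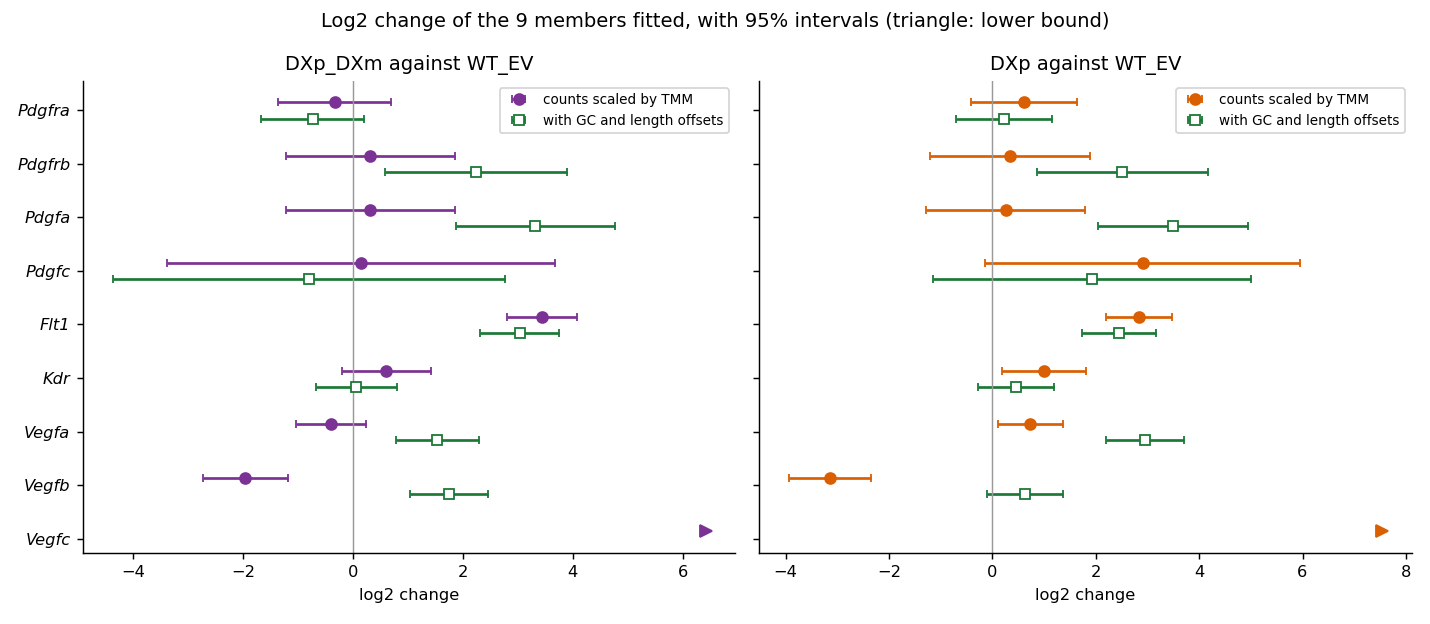
Log2 change against WT_EV (horizontal axis) of the 9 members fitted, in DXp_DXm (left) and DXp (right), from TMM-scaled counts (filled circles) and with offsets for GC content and length (open squares), with 95% intervals. Triangles mark the lower bound for Vegfc, which had no count in WT_EV, and the values of Vegfb and of Pdgfa move most with the offsets.

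**Figure D4:**
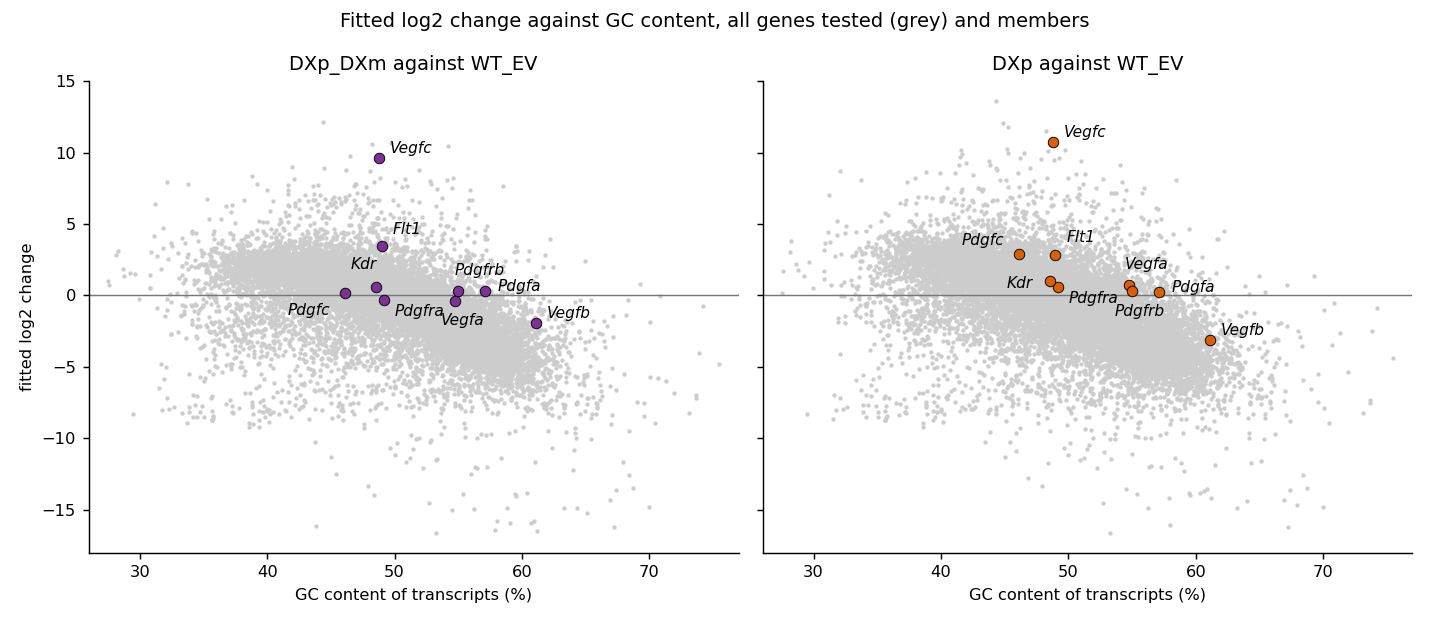
Fitted log2 change against WT_EV (vertical axis) by GC content of transcripts in percent (horizontal axis) for all genes tested (grey) and the 9 members (coloured), in DXp_DXm (left) and DXp (right). The grey cloud slopes down with GC content, Flt1 lies at its upper edge at 49.0% GC, Vegfc above it at 48.8% GC, and Vegfb lies at -1.96 and -3.14 at 61.1% GC. The height of Vegfc is a fitted value that depends on the prior count.

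Between the deletion groups, no member was called in DXp_DXm against DXp, and 2 of 9 (Vegfa and Vegfb) had an unadjusted p under 0.05 in edgeR, as did 20.8% of all genes tested. DESeq2 called 1, Vegfa, and 9.34% of all genes it tested. By edgeR 0.28% of all genes were called higher and 0.163% lower, and with offsets 0.137% and 0.118%. Nothing particular to the members is read from these counts. Vegfa had lower values in DXp_DXm than in DXp, with a log2 change of -1.13 (SE 0.31) and no overlap of the libraries. Vegfc, at -1.12, also had lower values in both DXp_DXm libraries than in both DXp libraries. Pdgfc, at -2.76 (SE 1.44), did so in CPM only by the scaling of libraries, with 6 counts in the first library of each group. The share of all genes whose libraries do not overlap was not counted, so nothing is read from such a separation. Vegfb had higher values in both DXp_DXm libraries, with a log2 change of 1.18 (SE 0.39), and the offsets left the signs of these 4 genes in place. Flt1 differed by 0.60 (95% interval -0.09 to 1.29) and Kdr by -0.40 (95% interval -1.28 to 0.49), and Pdgfra by -0.95 (95% interval -2.07 to 0.17).

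The wild-type clones were deposited in a separate table that is held here in part, on chromosomes 1, 2 and X and part of 3, and Pdgfc is the 1 member in it. WT_clone was not used to choose the members, but the other group of each comparison was, so the values of Pdgfc remain a description. Pdgfc had 5 and 9 counts in WT_clone and 0, 0 and 7 in WT_EV, a log2 change of 0.59 (SE 1.43). It was not called by edgeR over 3302 shared genes, of which 30.6% were called. Against WT_clone the log2 change of Pdgfc was -0.87 in DXp_DXm (SE 1.53) and 1.93 in DXp (SE 1.34), and edgeR called neither. Of the shared genes 25% were called in DXp_DXm and 40.2% in DXp against WT_clone. With so few counts, the 95% intervals reach from -4.234 to 2.501 in DXp_DXm and from -1.03 to 4.90 in DXp.

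Among 8 other genes of the PDGF and VEGF pathways tested in that table, edgeR called 3 in WT_clone against WT_EV. Pik3ca, the catalytic subunit of phosphoinositide 3-kinase, was higher in WT_clone by 1.37 (SE 0.26, adjusted p 0.00434) and Arnt, the partner of the hypoxia-inducible factors, by 1.22 (SE 0.28, adjusted p 0.00954). The kinase gene Src was called lower in WT_clone, at a log2 change of -1.30 (SE 0.34, with an adjusted p of 0.0193). Against WT_clone, Pdk1, a hypoxia target that limits pyruvate oxidation, was higher in DXp_DXm by 2.41 (SE 0.58, adjusted p 0.0148) and in DXp by 1.66 (SE 0.58, adjusted p 0.0452). Thbs1, Src and Plcg1 were called lower in both deletion groups against WT_clone, and Nrp2 was called lower in DXp. The share of all shared genes called with offsets was not counted, so nothing particular to these genes is read from the counts that follow. With offsets 0 of these genes passed in WT_clone against WT_EV and 0 in DXp_DXm against WT_clone. In DXp against WT_clone 2 passed, Thbs1 at -2.41 (adjusted p 0.00880) and Shc1, at 1.33 (adjusted p 0.0119), which had not passed without offsets.

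Other genes of the pathways were taken from 4 lists that hold no member, 63 genes of which 56 were tested. In DXp_DXm against WT_EV 22 were called higher and 15 lower, and in DXp against WT_EV 24 higher and 20 lower, with medians of 0.46 and 0.88 beside -0.15 and -0.35 over all genes. Of all genes tested, 30.9% were called higher and 36% lower in DXp_DXm, and 32.2% higher and 40.1% lower in DXp, so calls in either direction were common throughout. With offsets the counts were 21 higher and 9 lower in DXp_DXm, and 24 higher and 11 lower in DXp, where 19.7 and 21.4% of all genes passed in DXp_DXm and 23.5 and 26.6% in DXp. The lists were chosen with earlier results known and were not tested against other genes, so nothing particular to them is read from these counts or from those of each list. Between the deletion groups 0 were called by edgeR and 8 had an unadjusted p under 0.05, beside 20.8% of all genes. DESeq2 called 4, beside 9.34% of all genes it tested.

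Of the oxygen sensing and hypoxia genes 17 were tested: 10 were higher and 3 lower in DXp_DXm against WT_EV, and 11 higher and 4 lower in DXp. Pdk1 rose by 3.03 (SE 0.36, adjusted p 6.75e-05) and Egln1, an oxygen-sensing prolyl hydroxylase, by 2.17 (SE 0.28, adjusted p 9.05e-05) in DXp_DXm by edgeR. In DXp, Vhl, which targets the hypoxia-inducible factors for destruction, rose by 2.15 (SE 0.26, adjusted p 4.32e-05). Hif1a rose by 2.17 in DXp (SE 0.24, adjusted p 2.97e-05), but with offsets its change was 0.07 (adjusted p 0.852). Egln2, another prolyl hydroxylase, had the largest fall of the list, -4.36 (SE 0.36, adjusted p 2.19e-05) in DXp_DXm and -5.47 (SE 0.39, adjusted p 6.60e-06) in DXp. With offsets the fall of Egln2 was -0.78 (adjusted p 0.0943) in DXp_DXm and -1.85 (adjusted p 0.00311) in DXp. The glucose transporter gene Slc2a1 fell by 2.48 in DXp (adjusted p 0.00346), and with offsets its change was -0.01. Ddit4, an inhibitor of mTORC1 signalling, was lower in DXp_DXm, -1.70 (SE 0.42, adjusted p 0.00674), and with offsets higher, 1.49 (adjusted p 0.0338). The list's counts with offsets were 11 higher and 0 lower in DXp_DXm, and 11 higher and 2 lower in DXp. Egln1 and Vhl are known to limit the hypoxia-inducible factors, and Pdk1 is a target of these factors.

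Of 22 genes of receptor signalling, all tested, 10 were higher and 8 lower in DXp_DXm and 10 higher and 9 lower in DXp against WT_EV. Rasa1, a GTPase-activating protein that binds PDGF receptors, rose by 2.49 (SE 0.27, adjusted p 3.60e-05) in DXp_DXm and 3.28 (SE 0.27, adjusted p 6.44e-06) in DXp by edgeR. The adaptor gene Crk rose by 2.42 in DXp_DXm (SE 0.23, adjusted p 1.89e-05) and the Ras exchange factor gene Sos1 by 3.04 in DXp (SE 0.23, adjusted p 5.10e-06). With offsets these were 0.90 for Rasa1 in DXp_DXm and 1.04 in DXp, 1.69 for Crk in DXp_DXm and 0.94 for Sos1 in DXp, and each still passed. Akt1 fell, with a log2 change of -4.22 in DXp_DXm and -4.24 in DXp, and of -1.04 and -0.98 with offsets, past the threshold in each. Src fell, with -4.07 in DXp_DXm and -4.13 in DXp, but with offsets the adjusted p was 0.0739 in DXp_DXm and 0.0551 in DXp. With offsets the list had 7 higher and 3 lower in DXp_DXm, and 9 higher and 2 lower in DXp.

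Of the other ligands, receptors and co-receptors, 6 of 11 were tested. Kitl, the ligand of KIT, rose by 3.49 in DXp_DXm (SE 0.72, adjusted p 0.00303) and 4.78 in DXp (SE 0.72, adjusted p 0.000576) by edgeR, and with offsets the adjusted p was 0.0687 in DXp_DXm and 0.0114 in DXp. Pdgfd, a ligand of PDGFRB, had 7.67 and 12.3 CPM in DXp_DXm, 23.2 and 18.99 CPM in DXp, and 4.95, 3.88 and 7.80 CPM in WT_EV. It rose by 1.93 in DXp (SE 0.38, adjusted p 0.00114), while the value with offsets was 0.26. The neuropilins bind VEGF ligands beside their receptors: in DXp, Nrp1 fell, at -1.56 (SE 0.30, adjusted p 0.00131), as did Nrp2, at -4.15 (SE 1.02, adjusted p 0.0120). With offsets the values in DXp were -2.96 for Nrp1 and -4.15 for Nrp2, past the threshold in each. Nrp1 had 18.7 and 17.7 CPM in DXp_DXm, 5.62 and 5.87 CPM in DXp, and 18.5, 13.2 and 19.3 CPM in WT_EV. Both DXp libraries lay below all others, and DXp_DXm against DXp gave a log2 change of 1.66 (SE 0.33, adjusted p 0.0590), which did not pass. Flt4, the main receptor of VEGF-C, had 1 to 30 counts per library and was not called in either group without offsets. With offsets its log2 change was 2.44 in DXp_DXm (adjusted p 0.0423) and 3.93 in DXp (adjusted p 0.00285).

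Of 12 genes of ligand processing and binding, 11 were tested, with 1 higher and 4 lower in DXp_DXm and 1 higher and 5 lower in DXp against WT_EV. Hspg2, a heparan sulfate proteoglycan of basement membranes that binds growth factors, fell by 5.36 in DXp_DXm (SE 0.23, adjusted p 5.37e-06) and was at -5.11 in DXp (SE 0.23, adjusted p 4.46e-06). Furin, a protease that cleaves PDGF and VEGF-C precursors, fell by 4.95 in DXp_DXm (SE 0.38, adjusted p 1.67e-05) and was at -4.35 in DXp (SE 0.37, adjusted p 1.72e-05). With offsets the change of Hspg2 was -2.20 in DXp_DXm and -2.21 in DXp, and that of Furin -2.32 in DXp_DXm and -1.75 in DXp, past the threshold in each. The urokinase gene Plau was the 1 gene called higher, by 1.55 in DXp_DXm (SE 0.63, adjusted p 0.0460) and 1.80 in DXp (SE 0.63, adjusted p 0.0232). With offsets the list had 2 higher and 5 lower in both deletion groups.

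**Figure D5:**
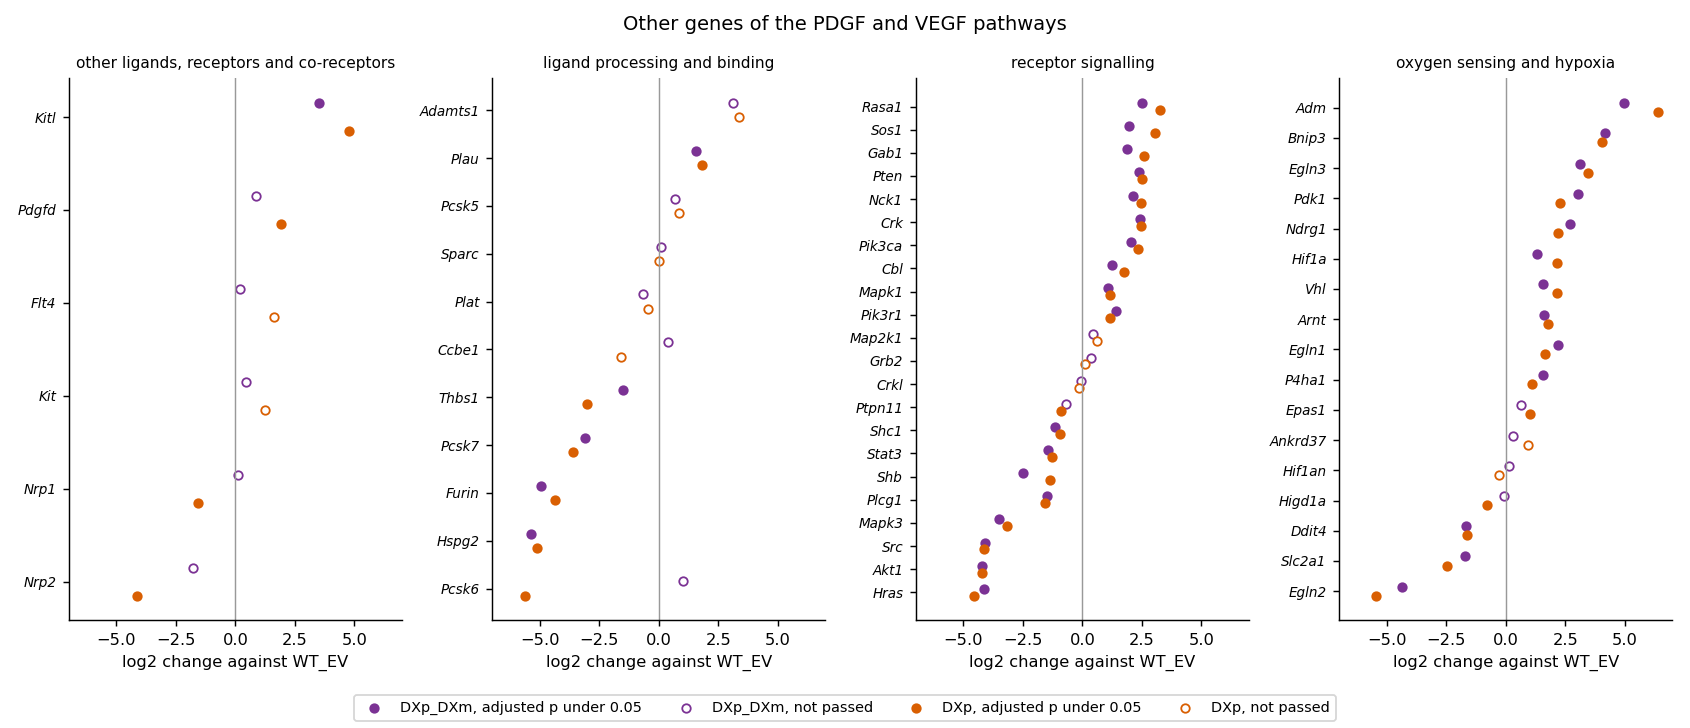
Log2 change against WT_EV (horizontal axis) of the 56 other pathway genes tested, in 4 lists, for DXp_DXm (purple) and DXp (orange), filled where the adjusted p was under 0.05, without offsets. Most oxygen-sensing genes lie right of 0, while Hspg2, Furin, Akt1, Src, Hras and Egln2 lie at -4 or below in both groups.

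Of the markers of primitive endoderm and XEN cells, 18 of 18 had a mean of 1 CPM or more in each group. In the first DXp library, however, Col4a1 had 0 counts and Col4a2 had 4. The summed levels of the 18 markers were 28348 to 31878 CPM in DXp_DXm, 24547 to 38119 CPM in DXp and 35532 to 47439 CPM in WT_EV. Against WT_EV edgeR called 5 of these markers higher and 6 lower in DXp_DXm, and 4 higher and 5 lower in DXp. Of all genes tested, 30.9% were called higher and 36% lower in DXp_DXm, and 32.2% and 40.1% in DXp. With offsets 8 markers were higher and 0 lower in DXp_DXm, and 9 higher and 0 lower in DXp. The shares of all genes were then 19.7% and 21.4% in DXp_DXm, and 23.5% and 26.6% in DXp. Gata4, a transcription factor of the lineage, averaged 102 ± 17.96 CPM in DXp_DXm, 132 ± 36.6 CPM in DXp and 706 ± 69.6 CPM in WT_EV (SD, n = 2, 2 and 3). The basement membrane gene Nid1 averaged 2234 ± 255 CPM in DXp_DXm, 4508 ± 857 CPM in DXp and 511 ± 72.2 CPM in WT_EV (SD, n = 2, 2 and 3). The part of these marker differences in the members' values was not tested. Of 12 endothelial markers, whose cells express Flt1 and Kdr, 3 reached 1 CPM in DXp_DXm, 3 in DXp and 4 in WT_EV. Their sum was 80.8 to 169 CPM in DXp_DXm, 150 to 314 CPM in DXp and 57.8 to 64.2 CPM in WT_EV. Most of it came from Tek in the deletion libraries, but not in WT_EV, where Cdh5 was at a similar level. Tek had 120 and 70.0 CPM in DXp_DXm, 130 and 301 CPM in DXp, and 22.2, 24.0 and 24.8 CPM in WT_EV, and its part in the difference of Flt1 was not tested. Of the 5 endothelial markers tested, 1 was called higher and 2 lower in DXp_DXm, and 1 higher and 3 lower in DXp against WT_EV. With offsets 1 was called higher and 0 lower in DXp_DXm, and 1 higher and 1 lower in DXp. The shares of all genes called are those given above for the XEN markers. The values of Esam (54.4% GC) and Vwf (54.2% GC) that follow are without offsets. Esam averaged 2.68 ± 0.958 CPM in DXp_DXm, 2.55 ± 0.160 CPM in DXp and 11.4 ± 5.72 CPM in WT_EV, and Vwf 0.451 ± 0.360 CPM in DXp_DXm, 0.257 ± 0.0738 CPM in DXp and 3.22 ± 1.45 CPM in WT_EV (SD, n = 2, 2 and 3). Cdh5 had 44.9 and 8.48 CPM in DXp_DXm, 17.1 and 10.7 CPM in DXp, and 23.5, 16.4 and 28.4 CPM in WT_EV, with overlapping groups. Tie1, Emcn, Cldn5, Sox18 and Robo4 were at 0 in all 7 libraries, and Pecam1 had at most 7 counts. Of 12 fibroblast and pericyte markers, 0, 0 and 1 reached 1 CPM in DXp_DXm, DXp and WT_EV, with Col1a2, Col3a1, Thy1, Twist1 and Lum at 0. Of 10 blood markers 2, 1 and 2 reached it, led by Runx1, with sums of 40.1 to 58.7 CPM in DXp_DXm, 25.3 to 38.5 CPM in DXp and 22.01 to 45.4 CPM in WT_EV. Of 8 pluripotent markers 0, 0 and 1 did, and of 8 trophoblast markers 0, 1 and 0.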

How the data were processed

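The members and all gene lists were chosen with earlier results of these data known. Total RNA was extracted with Trizol and made into stranded libraries with 1 of 2 kits, per the labels' protocols, which do not say which kit served which library. Reads were checked with FastQC, mapped to GRCm38 (mm10) by STAR 2.7.9a and counted with featureCounts 2.0.1, per the submitters' processing notes. The strand setting of the counting was not stated in the sources used here. The authors deposited raw read counts per gene, with 7 libraries in 1 table and the 2 WT_clone libraries in another, held here in part (11512 genes).

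Symbols, GC content and exon overlaps came from GENCODE M21: 55141 of 55401 genes had a symbol, and 54821 had the same start and end. Promoters came from RefSeq (GRCm38.p6). Counts were tested with edgeR 4.0.16 in R 4.3.3 (filterByExpr, TMM, robust quasi-likelihood test, p-values adjusted after Benjamini and Hochberg over all genes that passed the filter) in 1 fit of 7 libraries (15331 genes, biological coefficient of variation 33.7%) and, for WT_clone, 1 fit of 9 libraries on shared genes (3302 tested, 39.3%). The fits were run on simulated counts with a constant spread and a change set in 200 genes. These had no trend on GC content and no difference in RNA capture, so the simulation does not test the fits under either. Offsets were robust spline trends (5 degrees of freedom each) of each library's log2 CPM on GC content and log exon length, fitted on 15311 genes. Intervals are at 95% from these fits. Alternatives were DESeq2 1.42.0, other scalings, no filter, only the groups compared, a replicate block, a 2-fold minimum and leaving out each library.

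Named are all members, and per list and comparison up to 2 higher and 2 lower called genes with the lowest p. For Pdgfra and Vegfc the 4 genes of highest Pearson r are named, among genes with a mean of at least 2 CPM. The labels do not say that replicate numbers pair samples. The correlation of differences between replicates 1 and 2 was -0.20 for DXp_DXm with DXp, 0.08 for DXp_DXm with WT_EV and -0.07 for DXp with WT_EV. The titles of the DXp libraries carry 2 conflicting numbers, and the one written as a replicate was used. Replicates were not repeats of 1 library: their chi-square per gene was 37.9 or more.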

Additional observations from a re-analysis of the deposited data

How the results depend on the processing

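Over 14 alternatives the log2 change of Flt1 against WT_EV ran from 3.03 to 3.80 in DXp_DXm and from 2.45 to 3.16 in DXp, a range that the choice of members on these contrasts keeps from being a sign of stability. Offsets for GC content and length moved the members called in DXp_DXm against WT_EV to 6 of 9, against 3 without them. They turned the sign of Vegfb to 1.75 in DXp_DXm and 0.62 in DXp. In DXp_DXm they also turned the sign of Vegfa, to 1.54, and that of Pdgfc, to -0.79. Leaving out 1 WT_EV library gave 3 to 5 members called in DXp against WT_EV, where 66.6 to 73.1% of all genes tested were called. Kdr lost its call there under 6 of the 14 alternatives and Vegfa under 5. Between the deletion groups, where 0 members and 0 pathway genes were called, DESeq2 called 1 member and 4 pathway genes, the fit with no filter on low counts called 2 members and 4 pathway genes, and these called 9.34% and 5.18% of all genes they tested (1181 of 12644 and 1436 of 27732) beside 68 of 15331 in the fit as reported. Leaving out 1 WT_EV library gave 0 to 1 pathway genes, where 0.0265 to 3.19% of all genes tested were called. Against and among the wild-type clones, offsets left 0 genes called in WT_clone against WT_EV (3 without offsets), 2 in DXp against WT_clone (5 without) and 0 in DXp_DXm against WT_clone (4 without). For these comparisons the share of all shared genes called was not counted with offsets or without 1 library. Nothing particular to these genes is therefore read from such shifts. Leaving out 1 library gave 3 to 6 in DXp against WT_clone and 2 to 5 in DXp_DXm against WT_clone. The replicate block left 5 members called in DXp and 3 in DXp_DXm against WT_EV, where it called 69.4% and 63.1% of all genes tested. Between the deletion groups it left 0 members called, beside 0.6% of all genes. In DXp, Kdr no longer passed with the block and Pdgfc did. The block moved the log2 change of Pdgfc to 7.36 in DXp and 4.88 in DXp_DXm. Of the calls between the deletion groups, 63.2% were higher, against 47.8% when edgeR used the size factors of DESeq2. The cause of these shifts was not tested. Pdgfrb and Pdgfc had at most 43 counts in any library, which limits the precision of their changes.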
